A study of Sus scrofa with 23 samples.

Results

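The genes described here code for the mitochondrial respiratory chain, measured in pig macrophages exposed to bacterial lipopolysaccharide (LPS). They were chosen by symbol: every gene with its own probe set whose symbol starts with NDUF, SDHA to SDHD, UQCR, COX4 to COX8 or ATP5, with the brightest probe set standing for the gene. This gave 64 of the 6765 genes named on the array: 33 of complex I, 4 of complex II, 2 of complex III, 7 of complex IV, 14 of complex V and 4 assembly factors (NDUFAF1, NDUFAF2, NDUFAF3 and SDHAF2). The symbol rule uses no expression value, but the probe set of each gene was picked by its mean over these arrays. The set itself was chosen with earlier results of these data known.

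The respiratory chain sits in the inner mitochondrial membrane. Complexes I and II take electrons from NADH and succinate and pass them through ubiquinone to complex III, which hands them through cytochrome c to complex IV, where oxygen is reduced. Complexes I, III and IV pump protons, and complex V, the ATP synthase, uses the proton gradient to make ATP. In macrophages activated by LPS the chain is known for a turn from ATP synthesis towards production of reactive oxygen, while glycolysis supplies more of the ATP.

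The cells were bone marrow-derived macrophages of 3 Large White x Landrace F1 pigs, pigs 1 and 3 labelled male and pig 2 female, grown for 5 to 7 days in recombinant human CSF1, the growth factor of macrophages. They received 100 ng/ml of LPS from Salmonella enterica serotype minnesota Re 595 and were lysed at 0, 2, 7 and 24 h, the 0 h cultures being unstimulated. Every group shares the breed, the CSF1 culture and the overnight rest before LPS, and no group here is a later time without LPS. Cultures were made in duplicate for every pig and time, and 1 duplicate (pig 3, 24 h) was not used, so there are 23 arrays.

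The sample titles went against the arrays. The Y-linked gene EIF1AY disagreed with the labelled sex on 8 of 23 arrays. By correlation over 23917 probe sets outside the respiratory chain, 11 pairs of arrays were mutual best matches, and 0 of them had the same labelled pig and time. Reading the table's columns in their deposited order (the first 6 as 0 h, the next 6 as 2 h, the next 6 as 7 h and the last 5 as 24 h, with neighbouring columns as duplicate cultures of a pig) left 0 disagreements with sex and placed all 11 pairs as duplicates. That order was inferred from these arrays and not stated by the submitters, so the placing of the 11 pairs is no independent check of it. EIF1AY does not check which block of columns is which time. All times below are those of the column order, and every result is conditional on it. With the titles taken as given, 0 of the 64 genes, as 0% of all 6765 genes, passed the test over all times at an adjusted p of 0.05 (limma F test, Benjamini-Hochberg), and 0 of the 64 had an unadjusted p under that value (162 of all genes). Between the labelled pigs, 54 of the 64 and 4062 of all genes had an unadjusted p under it.

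Under the column order, all 17 measured genes of an LPS response list were called higher at 24 h, where 18.4% of all genes were. That order was inferred from these arrays with earlier results known, so the rise is no independent check of it. TNF was 6.81 ± 0.70 (log2 difference ± SE, 3 pigs) above 0 h at 2 h (limma adjusted p = 0.00033). Of 19 macrophage markers 14 were measured, and the sum of their intensities ran from 78170 to 82456 on the 0 h arrays and from 86767 to 88740 at 24 h. Of these 14, 6 were higher, 1 lower and 7 not called at 24 h, with log2 differences from -0.51 to 1.78. Some markers of other cells moved too. All marker counts at 24 h are to be read beside 18.4% of all genes higher and 28.3% lower. The summed intensity of 7 measured granulocyte and precursor markers was 1899 to 5632 at 0 h and 13440 to 17097 at 24 h, but the list divided: 4 were higher, led by S100A9 (3.30 on the log2 scale), and 2 lower, ELANE (-1.79) and PRTN3 (-1.25). That of 7 erythroid and platelet markers was 817 to 926 and then 5714 to 9111, with PPBP higher by 5.12. The median difference of those 7 was 0.07, with 2 higher, 1 lower and 4 not called. The 10 T and NK cell markers summed to 277 to 340 at 0 h and 372 to 1703 at 24 h, with CD2 higher by 3.21, 1 other higher and 8 not called. The 11 stromal and endothelial markers summed to 1996 to 3814 at 0 h and 1412 to 2728 at 24 h. Of these 11, 1 was higher, 4 lower and 6 not called at 24 h, with log2 differences from -2.50 to 0.35. The sum of 2 B and plasma cell markers never passed 619, with 1 lower and 1 not called at 24 h. The difference between 3' and 5' GAPDH control probe sets, a sign of RNA quality, averaged -0.18, -0.20, -0.32 and -0.21 on the log2 scale at 0, 2, 7 and 24 h. That for actin averaged 0.30, 0.39, 0.36 and 0.27. The part of these markers and of RNA quality in the results below was not tested.

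Most of the chain's genes were lower at 7 h and 24 h of LPS than at 0 h, with the larger median difference at 24 h. At 24 h, 52 of the 64 genes were lower than at 0 h and 1 was higher, against 28.3% lower and 18.4% higher among all genes tested (limma, adjusted p under 0.05). Their median log2 difference was -0.51, which leaves 70.2% of the 0 h level, and the median over all genes was -0.03. At 7 h, 48 of the 64 were lower and 4 higher, where 34.0% of all genes were lower and 17.5% higher. The median was -0.32 for the chain's genes and -0.06 over all genes. In bulk RNA, fewer cells of a type and less RNA per cell cannot be told apart, and values normalized between arrays show a gene's level relative to the other genes.

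The separation was visible on single arrays. At 24 h every array lay below every 0 h array for 46 of the 64 genes, compared with 22.4% of all genes, and above for 1, compared with 13.9%. At 7 h the same held for 42 genes downward, compared with 28.0% of all genes, and for 3 upward, compared with 13.9%. By pig, the median over the 64 genes at 24 h was -0.41, -0.62 and -0.51 in pigs 1, 2 and 3, and at 7 h it was -0.22, -0.36 and -0.38. All 3 pigs moved downward at both times. The 7 h and 24 h comparisons share the 0 h arrays.

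The calls depended on having all 3 pigs. Without pig 2 the number called at 7 h was 28 and without pig 3 it was 27, while without pig 1 it was 47. At 24 h it was 45, 37 and 42 without pigs 1, 2 and 3. The median differences stayed between -0.37 and -0.29 at 7 h and between -0.59 and -0.48 at 24 h when any pig was left out.

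At 2 h little had moved. Of the 64 genes 4 were lower and 0 higher (6 and 0 at an unadjusted p under 0.05), with 9.19% and 5.17% of all genes called in those directions. The 4 were NDUFV3 (-0.55), NDUFS3 (-0.41), SDHA (-0.26) and UQCR10 (-0.25). Without pig 1 the count was 1, without pig 2 it was 1 and without pig 3 it was 0. Without the pig term, SDHA and UQCR10 had adjusted p-values of 0.066 and 0.1. From 2 h to 7 h, 33 were lower and 3 higher, with 22.7% and 14.7% of all genes called. Those counts also shrank with fewer pigs, to 15 in all without pig 2 and 13 without pig 3.

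From 7 h to 24 h the genes divided. A further fall was called for 28, with 14.7% of all genes called lower, and a rise for 7, with 19.5% of all genes called higher. This comparison shares its 7 h arrays with the one against 0 h. Leaving out pig 1, 2 or 3 brought the total from 35 to 19, 21 or 21, and fitting only these 2 times brought it to 13. The lowest mean was at 24 h for 43 genes, at 7 h for 17, and at 0 h or 2 h for 2 each. The highest mean was at 0 h for 52 genes, or 81.3%, where 36.7% of all genes had theirs. Over all times, 57 of the 64 passed the F test, with 64.4% of all genes.

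**Figure D1:**
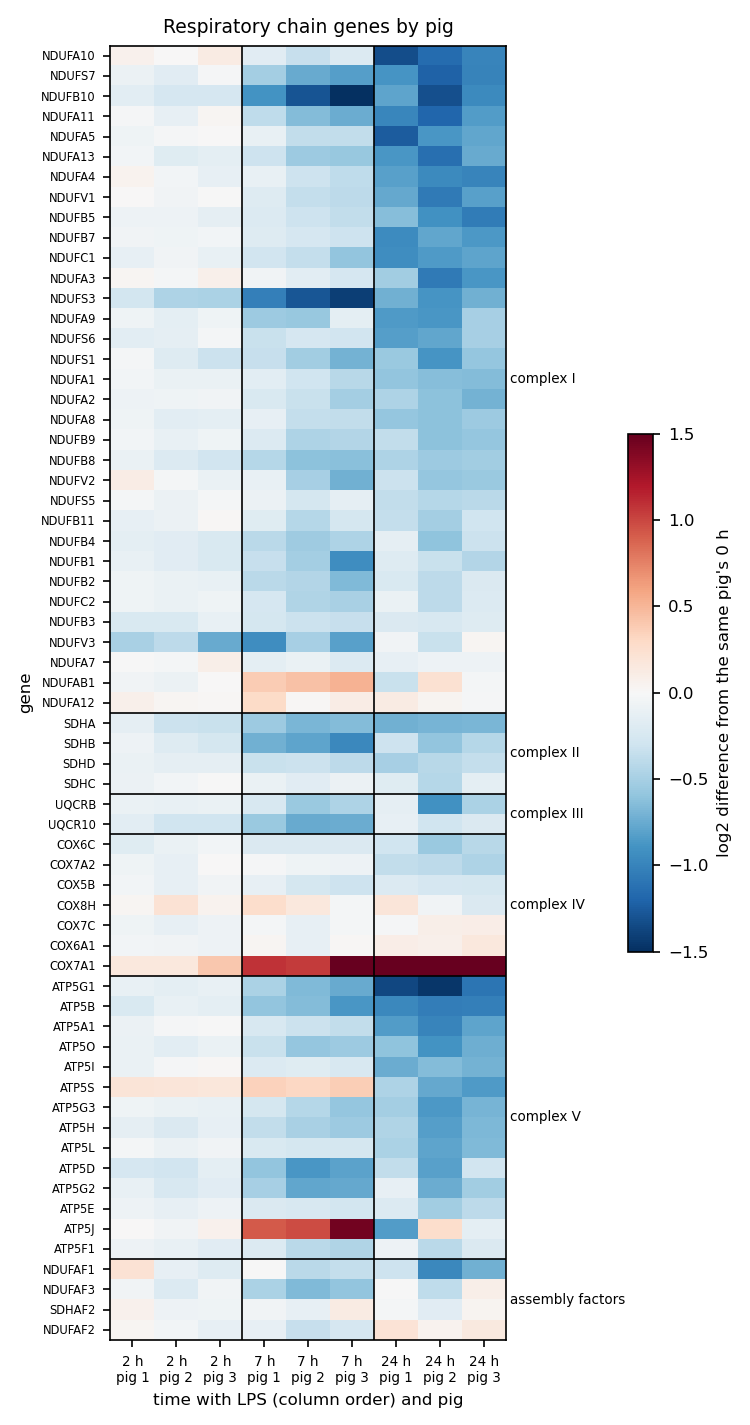
Log2 difference of each of the 64 genes (rows, grouped by complex) from the same pig's 0 h mean, for 2, 7 and 24 h (columns, 3 pigs each). Blue is lower and red higher, with colours saturating at 1.5. Most rows of complexes I and V deepen from 2 h to 24 h in all 3 pigs, and COX7A1 stands out in red.

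Complex I, the entry point for electrons from NADH, fell broadly. At 24 h 29 of its 33 genes, NDUFA4 included by its symbol, were lower and 0 higher, where 28.3% and 18.4% of all genes were. The median was -0.63, or 64.7% of the 0 h level. At 7 h 27 were lower and 1 was higher, where 34.0% and 17.5% of all genes were. The 7 h median was -0.36. NDUFAB1, NDUFV3, NDUFA7 and NDUFA12 were the 4 not called at 24 h.

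The core subunits, some of which carry the flavin and the iron-sulphur clusters, were represented by NDUFS1, NDUFS3, NDUFS7, NDUFV1 and NDUFV2. All 5 fell at both 7 h and 24 h. NDUFS7, which binds the last iron-sulphur cluster before ubiquinone, had a log2 intensity of 10.69 to 10.91 at 0 h (median 10.87). It lay at 10.65 to 10.88 at 2 h (median 10.72), at 9.95 to 10.44 at 7 h (median 10.06) and at 9.58 to 9.99 at 24 h (median 9.78). All arrays at 7 h and 24 h were below all those at 0 h, whereas the 2 h and 0 h arrays overlapped. The 24 h difference was -1.03 ± 0.09 (SE, 3 pigs, limma adjusted p = 3.9e-05).

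NDUFV1, the flavin subunit that accepts electrons from NADH, ran from 9.82 to 10.04 at 0 h (median 9.94) and from 8.85 to 9.20 at 24 h (median 9.12). No 24 h array reached the 0 h range. The difference was -0.88 ± 0.08 at 24 h (adjusted p = 4.5e-05) and -0.32 at 7 h (adjusted p = 0.01). The 7 h call was lost without pig 2 (adjusted p = 0.07) and without pig 3 (adjusted p = 0.097). NDUFS1, the largest subunit, differed by -0.53 at 7 h and -0.67 at 24 h. NDUFV2 differed by -0.44 and -0.48, but without pig 2 its adjusted p was 0.088 at 7 h and 0.092 at 24 h, and without pig 3 it was 0.1 at 7 h. Without the pig term its adjusted p was 0.075 at 7 h and 0.062 at 24 h.

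NDUFS3 took another course, with its lowest point at 7 h. Its log2 intensity was 10.996 to 11.31 at 0 h (median 11.09), 10.55 to 10.82 at 2 h (median 10.74), 9.68 to 10.04 at 7 h (median 9.94) and 10.25 to 10.39 at 24 h (median 10.34). The 4 ranges did not overlap. Relative to 0 h the differences were -0.41 at 2 h, -1.24 ± 0.09 at 7 h (adjusted p = 2.2e-05) and -0.78 at 24 h (adjusted p = 0.00015). The 2 h call was lost without pig 2 (adjusted p = 0.18) or pig 3 (adjusted p = 0.11). The rise from 7 h to 24 h of 0.46 (adjusted p = 0.0042) was not called without pig 3 (adjusted p = 0.068). A second probe set of NDUFS3 followed the same course, at -0.81 at 7 h and -0.49 at 24 h, both called.

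Among the accessory subunits, which surround the core and are needed for its assembly, NDUFB10 and NDUFA10 marked 2 time courses. NDUFB10 ran from 11.34 to 11.48 at 0 h (median 11.38), from 11.06 to 11.27 at 2 h (median 11.17), from 9.82 to 10.57 at 7 h (median 10.12) and from 10.07 to 10.61 at 24 h (median 10.41). Its mean was lowest at 7 h, and its 7 h and 24 h arrays overlapped. The differences from 0 h were -1.24 ± 0.13 at 7 h (adjusted p = 0.00011) and -1.02 ± 0.13 at 24 h (adjusted p = 0.0003).

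NDUFA10 lay at 9.62 to 9.90 at 0 h (median 9.75), 9.77 to 9.86 at 2 h (median 9.82), 9.44 to 9.60 at 7 h (median 9.51) and 8.42 to 8.72 at 24 h (median 8.62). It fell late: the difference was -0.24 at 7 h and -1.16 ± 0.08 at 24 h (adjusted p = 1.9e-05), to 44.8% of the 0 h level. The small 7 h difference was not called when any pig was left out (adjusted p = 0.058, 0.31 and 0.13 without pigs 1, 2 and 3), nor after centring the arrays on their medians or normalizing them again. The step from 7 h to 24 h was -0.92 ± 0.08 (adjusted p = 0.00014).

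NDUFA11 differed by -0.59 at 7 h and -1.001 at 24 h, and NDUFB8, a subunit whose protein is often used as a marker of assembled complex I, by -0.56 and -0.51. Of the other accessory genes, NDUFA5, NDUFA13, NDUFC1, NDUFB5, NDUFB7 and NDUFA3 were all between -0.97 and -0.82 at 24 h. NDUFB1, NDUFB2, NDUFB3, NDUFB4 and NDUFC2 had lower means at 7 h than at 24 h, but for none of these was the step from 7 h to 24 h called.

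NDUFV3, a small flavoprotein subunit, was lower at 2 h and 7 h and was not called at 24 h. It lay at 7.11 to 7.37 at 0 h, 6.54 to 7.01 at 2 h, 6.23 to 6.69 at 7 h and 6.75 to 7.40 at 24 h, with medians of 7.29, 6.71, 6.59 and 7.20. The 0 h and 24 h arrays overlapped, and those at 2 h and 7 h were all below 0 h. The difference was -0.75 ± 0.14 at 7 h (adjusted p = 0.0021), and -0.12 at 24 h with an adjusted p of 0.57. By pig, the 24 h difference was -0.05, -0.33 and 0.03, so pig 2 stayed lowest. The 2 h call was lost without pig 1 (adjusted p = 0.12) or pig 3 (adjusted p = 0.26), and so was the rise of 0.63 from 7 h to 24 h (adjusted p = 0.13 and 0.095).

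NDUFAB1 was the complex I gene that rose at 7 h. It is the mitochondrial acyl carrier protein, which also serves fatty acid and lipoic acid synthesis and iron-sulphur cluster assembly. Its log2 intensity was 11.55 to 11.70 at 0 h (median 11.58), 11.45 to 11.63 at 2 h (median 11.57), 11.89 to 12.14 at 7 h (median 12.09) and 11.19 to 11.90 at 24 h (median 11.55). All 7 h arrays were above all 0 h arrays, and the 24 h arrays spread to both sides of them. The 7 h difference was 0.45 ± 0.11 (adjusted p = 0.0094; 0.11 without pig 3), and the 24 h difference was -0.05 with an adjusted p of 0.78.

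**Figure D2:**
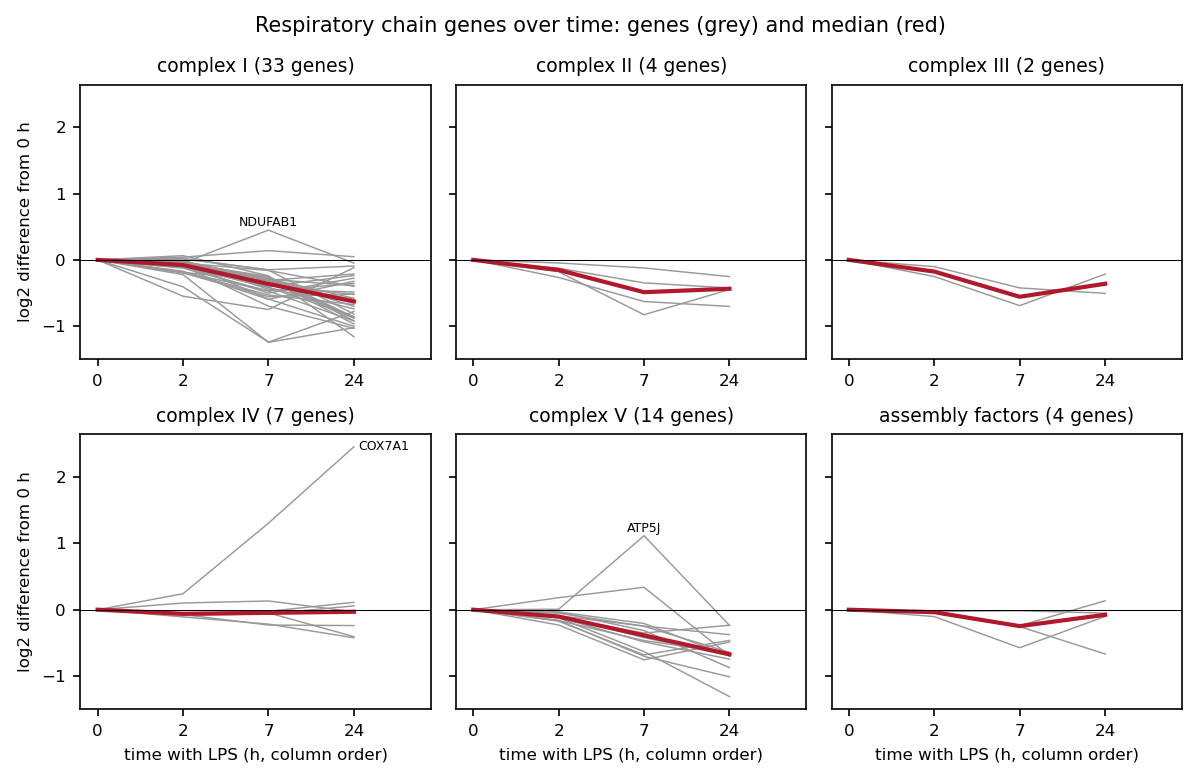
Log2 difference of the mean from 0 h at each time, for the genes of each complex (grey lines) and their median (red line), in 6 panels with a shared axis. The complex I and V medians reach -0.63 and -0.67 at 24 h, whereas that of complex IV is -0.03 with COX7A1 rising alone to 2.46. NDUFA4, a complex IV subunit, is drawn with complex I by its symbol.

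Complex II, succinate dehydrogenase, links the chain to the citric acid cycle. All 4 of its subunit genes were lower at 24 h, where 28.3% of all genes were. SDHA, the flavoprotein that oxidises succinate, lay at 10.60 to 10.82 at 0 h (median 10.72), 10.32 to 10.64 at 2 h (median 10.43), 9.99 to 10.19 at 7 h (median 10.08) and 9.90 to 10.10 at 24 h (median 10.02). Its 7 h and 24 h arrays were all below 0 h and overlapped with each other. The differences were -0.63 ± 0.07 at 7 h (adjusted p = 0.00013) and -0.70 ± 0.07 at 24 h (adjusted p = 7.8e-05). Its early fall of -0.26 at 2 h was not called when any pig was left out (adjusted p = 0.057, 0.32 and 0.31).

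The membrane anchors SDHD and SDHC changed less. SDHD differed by -0.35 at 7 h and -0.42 at 24 h, both called. SDHC differed by -0.25 at 24 h (adjusted p = 0.027), with overlapping arrays, and lost the call when any pig was left out (adjusted p = 0.087, 0.28 and 0.076).

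SDHB, the iron-sulphur subunit, gave opposite answers from its pair of probe sets. The brighter one, which stands for the gene here, lay at 11.89 to 12.14 at 0 h (median 11.96), 11.75 to 11.92 at 2 h (median 11.77), 11.10 to 11.21 at 7 h (median 11.15) and 11.34 to 11.64 at 24 h (median 11.60). It fell by 0.83 at 7 h (SE 0.08, adjusted p = 7.3e-05) and by 0.45 at 24 h (adjusted p = 0.002). The other probe set averaged 9.92 at 0 h, 9.82 at 2 h, 11.55 at 7 h and 10.70 at 24 h, and was called higher by 1.62 at 7 h and 0.78 at 24 h. With both averaged, SDHB was 0.40 above 0 h at 7 h and called (adjusted p = 0.0014). The direction of SDHB therefore depends on the probe set, and its place among the falling genes rests on the brighter one. Of 8 further probe sets of at least 6 in mean log2 intensity that belong to genes called at 24 h, 6 moved the same way with a call of their own, and SDHB was the 1 called the opposite way. At 7 h, 7 of 8 such probe sets moved the same way, 4 of them with a call, and SDHB was again called the opposite way. Of those under 6, 4 of 7 moved the same way at 7 h, with 0 called. At 24 h 3 of 6 did, with 2 called.

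Complex III was represented by UQCR10 and UQCRB, both small subunits of the core dimer, and the catalytic subunits were not analysed here. UQCR10 lay at 11.60 to 11.83 at 0 h (median 11.76), 11.37 to 11.63 at 2 h (median 11.49), 10.93 to 11.18 at 7 h (median 11.03) and 11.47 to 11.68 at 24 h (median 11.50). The 7 h arrays stood below all others. Its difference was -0.69 ± 0.07 at 7 h (adjusted p = 7.1e-05), followed by a rise of 0.48 to 24 h (adjusted p = 0.00088). The remaining gap to 0 h, -0.21 (adjusted p = 0.031), lost its call when any pig was left out (adjusted p = 0.065, 0.29 and 0.14), and so did the 2 h difference of -0.25 (adjusted p = 0.085, 0.31 and 0.29). UQCRB differed by -0.42 at 7 h and -0.51 at 24 h. Its calls were lost without pig 2 (adjusted p = 0.074 and 0.13) and without pig 3 (adjusted p = 0.19 and 0.11).

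Complex IV is cytochrome c oxidase. Of its 7 genes, 3 fell at 24 h (COX5B, COX6C and COX7A2), 1 rose (COX7A1) and 3 were not called, where 28.3% of all genes fell and 18.4% rose. The median was -0.03, and no test compared complex IV with the other complexes. These counts and the median leave out NDUFA4, a complex IV subunit that its symbol places under complex I. It differed by -0.92 at 24 h. COX6A1, a supernumerary subunit in its widely expressed form, lay at 12.71 to 12.84 at 0 h (median 12.77) and 12.83 to 12.96 at 24 h (median 12.87). The difference of 0.11 ± 0.06 had an adjusted p of 0.22. COX7C differed by 0.06 (adjusted p = 0.55), and COX8H, a heart form, by -0.03 (adjusted p = 0.84) at a low log2 intensity of 5.99 to 6.56 over all 23 arrays.

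COX7A1 was the gene that rose most. It codes for the heart and muscle form of a small subunit whose other form, COX7A2, is found in most tissues. Its log2 intensity was 6.61 to 6.85 at 0 h (median 6.77), 6.86 to 7.26 at 2 h (median 6.91), 7.69 to 8.71 at 7 h (median 7.88) and 9.02 to 9.30 at 24 h (median 9.22). Each time point lay wholly above the one before, although the 2 h difference of 0.24 was not called (adjusted p = 0.34). The difference from 0 h was 1.30 ± 0.14 at 7 h (adjusted p = 0.0001) and 2.46 ± 0.14 at 24 h (adjusted p = 6e-06), a fold of 5.48. By pig it was 2.38, 2.49 and 2.50 at 24 h.

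COX7A2 lay at 11.87 to 12.001 at 0 h (median 11.96), 11.80 to 12.003 at 2 h (median 11.90), 11.85 to 11.94 at 7 h (median 11.92) and 11.47 to 11.66 at 24 h (median 11.54). It stayed within its 0 h and 2 h ranges at 7 h, apart from 1 array just below 0 h, and all 24 h arrays were lower. The 24 h difference was -0.41 ± 0.06 (adjusted p = 0.001). The 2 forms thus had called differences of opposite sign at 24 h, and their levels were not compared because they come from different probes.

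NDUFA4 carries a complex I name and is counted there by its symbol, but its protein is a subunit of complex IV. It lay at 11.81 to 12.18 at 0 h (median 11.98), 11.89 to 11.98 at 2 h (median 11.96), 11.66 to 11.76 at 7 h (median 11.73) and 10.98 to 11.12 at 24 h (median 11.08). The 24 h arrays were far below the rest. The 24 h difference was -0.92 ± 0.07 (adjusted p = 2e-05), and the 7 h difference of -0.26 was lost without pig 2 or pig 3 (adjusted p = 0.14 for each).

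C1H15orf48 is no member of the set. It codes for NMES1, a relative of NDUFA4 that is known to take its place in complex IV in inflamed cells, and it also hosts a microRNA. Its log2 intensity was 9.96 to 10.61 at 0 h (median 10.19), 10.59 to 11.74 at 2 h (median 11.49), 12.44 to 12.66 at 7 h (median 12.61) and 10.78 to 12.41 at 24 h (median 12.07). It was highest at 7 h, and at 24 h the 2 arrays of pig 1 stood lowest. The differences from 0 h were 1.08 at 2 h, 2.37 ± 0.23 at 7 h (adjusted p = 7.6e-05) and 1.58 ± 0.23 at 24 h (adjusted p = 0.00063). The 2 h call was lost without pig 2 (adjusted p = 0.1) or pig 3 (adjusted p = 0.2). NDUFA4 and C1H15orf48 thus moved in opposite directions at 7 h and at 24 h.

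**Figure D3:**
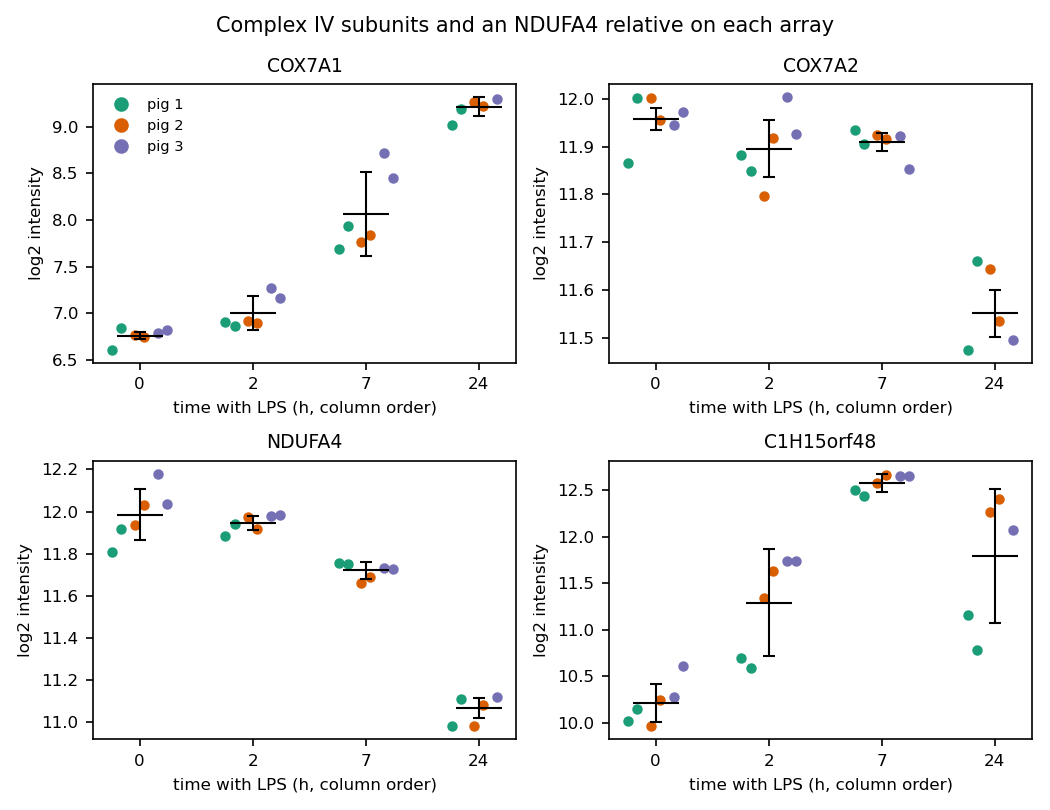
Log2 intensity of COX7A1, COX7A2, NDUFA4 and C1H15orf48 on each of the 23 arrays (points, coloured by pig) at 0, 2, 7 and 24 h, with the mean and SD over 3 pigs (black bars). COX7A1 climbs to 9.22 in the median array at 24 h while COX7A2 and NDUFA4 drop to 11.54 and 11.08, and C1H15orf48 is highest at 7 h. Each panel has its own axis.

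Complex V is the ATP synthase. At 24 h 13 of its 14 genes were lower and 0 higher, where 28.3% and 18.4% of all genes were. The median was -0.67, or 62.8% of the 0 h level. At 7 h 12 were lower and 2 higher, so all 14 were called, where 34.0% of all genes were lower and 17.5% higher. ATP5A1 and ATP5B, now named ATP5F1A and ATP5F1B, code for the alpha and beta subunits of the catalytic head. ATP5B lay at 12.48 to 12.69 at 0 h (median 12.59), 12.34 to 12.60 at 2 h (median 12.38), 11.61 to 12.04 at 7 h (median 12.01) and 11.46 to 11.68 at 24 h (median 11.62). All 7 h and 24 h arrays were below all 0 h arrays. Its difference was -0.70 ± 0.08 at 7 h (adjusted p = 0.00014) and -1.01 ± 0.08 at 24 h (adjusted p = 2.4e-05), to 49.6% of the 0 h level.

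ATP5A1 lay at 13.08 to 13.22 at 0 h (median 13.19), 13.12 to 13.18 at 2 h (median 13.13), 12.75 to 12.99 at 7 h (median 12.85) and 12.15 to 12.42 at 24 h (median 12.32). The 7 h difference of -0.31 was lost without pig 2 (adjusted p = 0.059) or pig 3 (adjusted p = 0.068), and that at 24 h was -0.87 ± 0.07 (adjusted p = 3.1e-05).

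Subunit c forms the rotor ring and is coded by 3 genes for the same mature protein, ATP5G1, ATP5G2 and ATP5G3. ATP5G1 had the largest fall of the 64 genes at 24 h. It lay at 11.59 to 11.79 at 0 h (median 11.69), 11.51 to 11.61 at 2 h (median 11.57), 10.91 to 11.22 at 7 h (median 11.07) and 10.22 to 10.59 at 24 h (median 10.30). Neither the 7 h nor the 24 h arrays overlapped with 0 h or with each other. The differences were -0.63 ± 0.10 at 7 h (adjusted p = 0.00084) and -1.31 ± 0.10 at 24 h (adjusted p = 2.2e-05), to 40.3% of the 0 h level. At 24 h ATP5G2 differed by -0.46 and ATP5G3 by -0.69, both called.

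ATP5D, the delta subunit of the central stalk, was lower by -0.76 at 7 h (adjusted p = 0.0005) and -0.49 at 24 h (adjusted p = 0.0066, 0.093 without pig 2). The other stalk and membrane genes ATP5E, ATP5F1, ATP5H, ATP5I, ATP5L and ATP5O were between -0.75 and -0.23 at 24 h, all called. The weakest of these was ATP5F1, with an adjusted p of 0.049 and overlapping arrays.

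ATP5J and ATP5S rose at 7 h. ATP5J codes for coupling factor 6 of the peripheral stalk. Its log2 intensity was 10.58 to 10.95 at 0 h (median 10.79), 10.61 to 10.89 at 2 h (median 10.78), 11.68 to 12.04 at 7 h (median 11.89) and 9.88 to 11.20 at 24 h (median 10.45). All 7 h arrays stood above every array of the other times. The 7 h difference was 1.12 ± 0.21 (adjusted p = 0.0021; 0.055 without pig 3), a fold of 2.17, and the 24 h difference was -0.24 with an adjusted p of 0.43. The step from 7 h to 24 h was -1.35 ± 0.21 (adjusted p = 0.0015).

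ATP5S, coupling factor B, which is not part of the enzyme's stable structure, was also highest at 7 h and lowest at 24 h. It differed by 0.34 at 7 h (adjusted p = 0.012), by -0.70 at 24 h (adjusted p = 0.00026) and by -1.03 from 7 h to 24 h. The 7 h call was lost without pig 2 (adjusted p = 0.087), without pig 3 (adjusted p = 0.071) and without the pig term (adjusted p = 0.23). A second probe set of ATP5S gave 0.34 and -0.58, both called.

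Of the 4 assembly factors, 2 fell at 7 h (NDUFAF2 and NDUFAF3) and 1 at 24 h (NDUFAF1, by 0.67), where 34.0% and 28.3% of all genes were lower, so these counts lie near those shares. Their median at 24 h was -0.08. NDUFAF3 differed by -0.57 at 7 h and -0.10 at 24 h, and NDUFAF2 and NDUFAF3 both rose from 7 h to 24 h. SDHAF2, which attaches the flavin to SDHA, was not called at any time by its brighter probe set, while its other probe set was called higher by 0.34 at 7 h (adjusted p = 0.012).

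**Figure D4:**
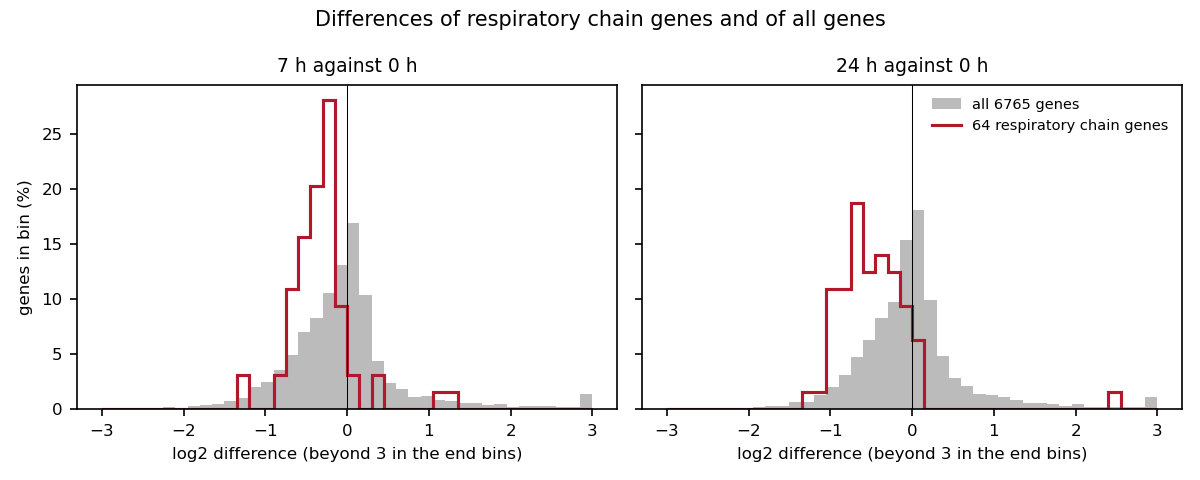
Share of genes (%) by log2 difference from 0 h, at 7 h (left) and 24 h (right), for all 6765 genes (grey) and the 64 respiratory chain genes (red line), in bins of equal width. At 24 h the red line has its median at -0.51 and the grey area at -0.03. COX7A1 is the lone red bin at 2.46.

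Between pigs, 4 of the 64 passed the F test (NDUFA9, ATP5S, NDUFC1 and NDUFV2), with 12.8% of all genes. Leaving out any pig left 1, whereas 8 were called with the probe sets of a gene averaged and 16 with the 23 arrays and a random block for the culture pairs. NDUFA9 lay at 11.46 and 11.50 in pig 1, 11.20 and 11.08 in pig 2 and 10.60 and 10.56 in pig 3 at 0 h, and kept that order at 24 h, with 10.67 and 10.60, then 10.28 and 10.25, then 10.09. Its 24 h arrays therefore overlapped with 0 h across pigs, while each pig's own 24 h arrays were below its 0 h arrays. The difference at 24 h was -0.74 ± 0.10 with the pig term (adjusted p = 0.00039), and its adjusted p was 0.07 without that term.

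The time course differed between pigs for 14 of the 64 genes, with 33.6% of all genes. This test uses the duplicate cultures as its error, so its p measures the spread between cultures of a pig, and the count was 3, 4 and 8 genes without pigs 1, 2 and 3. The smallest p-values were those of ATP5J (adjusted p = 5.7e-06), UQCRB (0.0011), NDUFB10 (0.002) and NDUFAB1 (0.0023).

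In ATP5J the pigs parted at 24 h. Relative to 0 h, pig 1 stood at -0.84, pig 2 at 0.27 and pig 3 at -0.14, after 0.93, 0.97 and 1.45 at 7 h. The 24 h arrays read 10.02 and 9.88 in pig 1, 11.20 and 11.18 in pig 2 and 10.45 in pig 3. The 3 pigs did not overlap there. NDUFAB1 had the same order at 24 h, with -0.34, 0.23 and -0.03 relative to 0 h. UQCRB had the reverse order, with -0.14 in pig 1, -0.90 in pig 2 and -0.47 in pig 3. In NDUFB10 the pigs parted at 7 h as well, with -0.90, -1.30 and -1.53, and stood at -0.79, -1.32 and -0.96 at 24 h.

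**Figure D5:**
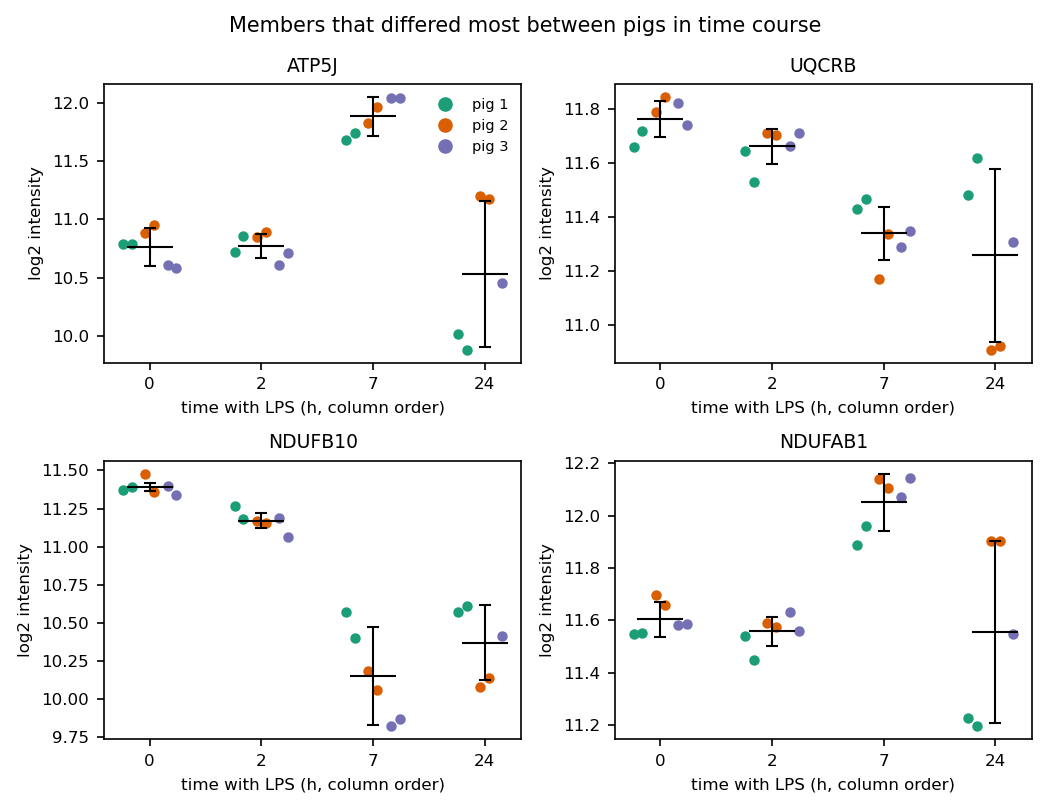
Log2 intensity of ATP5J, UQCRB, NDUFB10 and NDUFAB1 on each array (points, coloured by pig) at 0, 2, 7 and 24 h, with the mean and SD over 3 pigs (black bars). At 24 h ATP5J spans 9.88 to 11.20, with the duplicate cultures of each pig side by side. Each panel has its own axis.

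Genes that work with the chain were counted from lists fixed for this report. Their counts are to be read beside the shares of all genes: 34.0% lower and 17.5% higher at 7 h, and 28.3% lower and 18.4% higher at 24 h. Of 10 further complex I assembly factors and partners 5 were measured, and 3 fell at 24 h. ACAD9, a complex I assembly factor, differed by -0.94 at 7 h and -0.93 at 24 h. TMEM186 was lower already at 2 h, by -1.01 (adjusted p = 0.002; 0.051 without pig 3), and stood at -0.07 at 24 h with an adjusted p of 0.76. ECSIT, an assembly factor that also signals below the LPS receptor, differed by -0.52 at 7 h (adjusted p = 0.0017) and -0.24 at 24 h (adjusted p = 0.072).

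Of 42 assembly factors of complexes II to V 11 were measured, not counting SDHAF2, which is among the 64 genes. Of these 11, 9 fell at 7 h, and 5 fell and 1 rose at 24 h. BCS1L, which inserts the iron-sulphur protein into complex III, differed by -1.16 at 7 h and -1.08 at 24 h. TMEM70, an ATP synthase assembly factor, was lower by -0.88 at 2 h (adjusted p = 0.00042), by -0.50 at 7 h, and 0.11 above 0 h at 24 h with an adjusted p of 0.43. SCO2, a copper carrier for complex IV, differed by -0.80 at 2 h (adjusted p = 0.00013) and -0.40 at 7 h. Its 24 h difference of -0.29 was lost without pig 1 (adjusted p = 0.061) or pig 2 (adjusted p = 0.12). At 2 h, 2 of the 5 measured complex I partners and 3 of these 11 were already lower, where 9.19% of all genes were lower.

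Of 21 electron carrier and ubiquinone genes 10 were measured, with 6 lower and 2 higher at 24 h. PDSS1, a subunit of the enzyme that makes the ubiquinone side chain, lay at 7.68 to 8.16 at 0 h (median 7.90) and 5.60 to 6.41 at 24 h (median 5.81), a difference of -1.95 ± 0.19 (adjusted p = 7.5e-05). Its 0 h and 24 h arrays did not overlap. CYCS, cytochrome c, differed by -0.56 at 24 h (adjusted p = 0.013), which was lost without pig 1 (adjusted p = 0.083) or pig 2 (adjusted p = 0.14). GPD2, the glycerol-3-phosphate dehydrogenase that feeds electrons to ubiquinone directly, was higher by 0.68 at 24 h (adjusted p = 0.0087; 0.057 without pig 2). COQ9 differed by -0.67 at 7 h and by 0.09 at 24 h (adjusted p = 0.51). None of the 13 mitochondrially encoded subunits was measured, so the list gives 0 genes.

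The citric acid cycle and pyruvate dehydrogenase list had 25 of 32 genes measured, of which 19 fell and 1 rose at 24 h, with a median of -0.70. PDHB, a subunit of pyruvate dehydrogenase, differed by -1.45 ± 0.16 (adjusted p = 0.00014), with 24 h arrays from 9.05 to 10.13 (median 9.97) and 0 h arrays from 11.08 to 11.31 (median 11.16). IDH1, which is mainly cytosolic, differed by -1.17, MDH2 by -1.06 and the cytosolic MDH1 by -1.04, all called. At 7 h 16 of the 25 had fallen.

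Of 62 genes for the mitochondrial ribosome and protein import, 48 were measured, 35 fell and 1 rose at 7 h, and 32 fell and 2 rose at 24 h, with medians of -0.42 and -0.43. TIMM8A and TIMM13, partners in the chaperone that guides proteins to the inner membrane, differed by -1.86 and -1.62 at 7 h. MRPS35 and MRPS14, proteins of the small ribosomal subunit, differed by -1.17 and -1.14 at 7 h.

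Of 11 measured regulators of mitochondrial biogenesis, 4 were lower and 2 higher at 24 h, near the shares of all genes (28.3% and 18.4%). At 2 h 5 were lower and 1 higher, where 9.19% of all genes were lower and 5.17% higher. MYC differed by -2.52 at 2 h, -2.35 at 7 h and -1.65 at 24 h. PPRC1, a coactivator of the PGC-1 family, was lower by -1.73 at 7 h and -1.57 at 24 h. PPARG was lower by -1.80 at 7 h and higher by 1.42 at 24 h. TFAM, which packs and transcribes mitochondrial DNA, differed by -0.63 at 24 h (adjusted p = 0.00019). TFAM has further probe sets, and with all averaged its differences at 2 h and 7 h were 0.02 and 0.06 in place of -0.31 and -0.40. PPARGC1A, the PGC-1 alpha gene, lay between 3.46 and 3.88 on all arrays, with no call at any time.

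Of 23 measured glycolysis and hypoxia genes, 7 rose and 5 fell at 24 h, with a median of 0.08, where 18.4% of all genes rose and 28.3% fell. The rises were led by VEGFA (3.03), ADM (2.87), SLC2A3 (2.31), a glucose transporter, and HK3 (1.91), a hexokinase. HIF1A, the oxygen-regulated transcription factor, was higher by 0.67 ± 0.09 at 24 h (adjusted p = 0.00043). At 7 h 9 of the 23 were lower and 6 higher.

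A further list mixes genes that curb respiration or handle oxidants with membrane pores, carriers and genes of mitochondrial fusion and fission. Of its 26 measured genes, 12 fell and 4 rose at 24 h, where 28.3% of all genes fell and 18.4% rose. SOD2, the mitochondrial superoxide dismutase, was higher by 1.43, 1.78 and 1.52 at 2, 7 and 24 h. VDAC1, the main pore of the outer membrane, differed by -0.97 at 24 h. SLC25A4, an ADP/ATP carrier, differed by -1.11 at 7 h and -0.48 at 24 h, the latter lost without pig 2 (adjusted p = 0.27). NOS2, whose product nitric oxide blocks respiration in activated mouse macrophages, lay between 5.66 and 6.24 on all arrays, and its 24 h difference was -0.02 (adjusted p = 0.87).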

How the data were processed

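RNA from macrophage cultures of 3 pigs was measured on 23 Affymetrix porcine arrays. The authors deposited linear intensity values, 1 per probe set, for which the submitters' processing notes name affy and RMA (versions not given in the sources used here). They were converted here to log2 and not normalized again. Precision is limited by the number of pigs (3) rather than by the number of arrays. Array medians ran from 69.5 to 73.9 intensity units. Array controls (124 of 24123 probe sets) were dropped. In the platform annotation 10069 probe sets have 1 gene, 198 have several and 13732 have none listed. Symbols were looked up through the RefSeq gene table, which left those of all 82 member probe sets unchanged (15 genes have more than 1).

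Duplicate cultures were averaged to 12 pig-by-time means, so the pig is the replicate. Time and pig were fitted with limma 3.58.1 (R 4.3.3, 6 residual degrees of freedom) on 23999 probe sets, with Benjamini-Hochberg adjustment over all and a threshold of 0.05. The interaction used the 23 arrays (11 residual degrees of freedom). The fit was tested on simulated data. The pig term was kept because the same pigs supplied every time: pig deviations correlated at 0.34 to 0.73 between times. An array range gives the lowest, median and highest value.

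The genes, lists and column order were chosen with earlier results of these data known, so their tests are not independent of those results. Named genes were those called and moving alike in all pigs with the largest changes (6 each way against 0 h, 3 each way between later times), the 4 smallest p-values for pigs and for interaction, a fixed set of subunits, and up to 4 called genes per list. Any gene named beyond that rule was chosen after its values were seen. Promoter motifs were not analysed here.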

Additional observations from a re-analysis of the deposited data

Results flagged for a closer look

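Single arrays stood apart from the others of their time in 7 of 116 combinations of a named gene and a time, judged by Dixon's 95% criterion, where chance gives about 1 in 20 (5.8). The duplicate cultures of a pig share their source, so the arrays of a time are not independent. All 7 deviations were small. At 0 h, NDUFS1 read 9.48 on the first array of pig 3 with the others at 9.21 to 9.28. SDHC read 10.58 on the second array of pig 3 with the others at 10.71 to 10.77, and ATP5A1 read 13.08 on its first array with the others at 13.17 to 13.22. At 2 h, the second array of pig 1 was lowest for UQCRB at 11.53 (others 11.65 to 11.71) and for COX6A1 at 12.65 (others 12.72 to 12.75), and the second array of pig 2 was highest for ATP5A1 at 13.18 (others 13.12 to 13.14). At 7 h, COX7A2 read 11.85 on the second array of pig 3, with the others at 11.91 to 11.94.

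Time courses differed between pigs, by the limma interaction test over cultures, for 10 of the 29 chain genes named by rule. Among all genes, 33.6% passed this test. The rule took ATP5J, UQCRB, NDUFB10 and NDUFAB1 for their small p in this test, so part of the count follows from selection. The adjusted p was 5.7e-06 for ATP5J, 0.0011 for UQCRB, 0.00198 for NDUFB10, 0.0023 for NDUFAB1, 0.0094 for NDUFV2, 0.012 for COX7A1, 0.014 for ATP5D, 0.0199 for NDUFA9, 0.0402 for NDUFV3 and 0.048 for ATP5G1. In COX7A1 the difference lay at 7 h, where the pigs stood at 1.09, 1.04 and 1.78 above 0 h, and not at 24 h, where they stood within 2.38 to 2.50. With 3 pigs, an animal's own course and its cultures' handling cannot be told apart.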

How the results depend on the processing

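With the titles as given, the count over all times was 0 under every alternative run. Under the column order the counts at 7 h and 24 h against 0 h kept within 1.5 times the main count under every alternative except leaving out a pig at 7 h (27 to 47). Leaving out a pig gave 0 to 1 called at 2 h, 13 to 28 for the step from 2 h to 7 h, 19 to 21 for that from 7 h to 24 h, 1 to 1 between pigs and 3 to 8 for the interaction, and a 2 h median of -0.091 to -0.066. The 4 calls at 2 h became 2 without the replicate block (the pig term), 0 with first cultures only, 2 with second cultures, 2 after centring arrays and 2 with probe sets averaged, and the 2 h median became -0.062 after centring. Fitting only the times compared left 13 of 35 calls between 7 h and 24 h. Between pigs, 16 were called with the 23 arrays and a random block, 2 with first cultures and 8 with probe sets averaged. The interaction gave 24 with dim probe sets (mean log2 under 6) left out and 24 with probe sets averaged. Averaging probe sets reversed SDHB (0.40 at 7 h and 0.17 at 24 h relative to 0 h, 0.54 from 2 h to 7 h, -0.23 from 7 h to 24 h) and TFAM (0.024 at 2 h, 0.062 at 7 h). The cause was not tested. The 234 called differences of named genes were each refitted under 13 settings, and of these 3042 refits 2713 kept direction and call, 323 lost the call and 6 reversed. Among the settings was the platform's own naming, which gives the same symbol for all 82 member probe sets. Its 234 refits are in the 2713 but could not differ from the main fit, so they test nothing. No shift of the all-gene median passed 0.1 under another scaling. The pig block left the counts at 7 h and 24 h at 45 and 46 when dropped. Signal over background was not measured here, so it is unknown whether low values such as those of PPARGC1A and NOS2 stood above it. Promoter motifs were not run.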
